A study of Mus musculus with 24 samples.

Results

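The genes described here were 95 solute carriers of the families Slc5, Slc6, Slc7, Slc12, Slc13, Slc17, Slc22 and Slc34, which move sugars, amino acids, inorganic ions and organic ions across membranes, mostly at the cost of a sodium or other ion gradient. They were chosen by name: a gene was included when its RefSeq symbol consisted of 1 of these family names, the letter a and a number, so symbols that end in a further letter were not members. The mouse reference held 96 such symbols, and 95 of them had a probe on the array (Slc6a16 had none). They were 95 of the 45616 genes and unmatched targets that the array measured: 25 Slc22, 18 Slc6, 15 Slc7, 11 Slc5, 9 Slc12, 9 Slc17, 5 Slc13 and 3 Slc34 genes. The rule reads the symbol alone, but the families were chosen with earlier results of these data known.

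Total RNA of male C57BL/6J mice, taken from kidney, liver, lung and white fat (white adipose tissue, WAT), was hybridised in 1 colour to mouse expression arrays, with 3 mice at 10 weeks (10W) and 3 mice at 90 weeks (90W) in each tissue and 24 arrays in all. The labels name no genotype other than the strain and no treatment, and they do not say whether the tissues of a mouse share its number, so the arrays were treated as separate samples. The study asked how gene expression differs between young and aged organs. A level below is the log2 signal of a gene's probe relative to the 75th percentile of the array, so 0 is that percentile and a difference of 1 is 2-fold. Changes are 90W minus 10W, with standard errors from limma, and a change was called at a Benjamini-Hochberg adjusted p under 0.05 over all genes tested in the tissue.

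Carriers of these families divide the work of the nephron. In the proximal tubule, sodium-coupled carriers of the apical membrane reclaim filtered glucose, amino acids, phosphate, sulfate and citrate, and organic ion carriers of both membranes secrete drugs and metabolites. The electrolyte carriers of the Slc12 family reclaim salt in the thick ascending limb and the distal convoluted tubule, whereas in the liver, lung and fat members of the same families take up drugs, neurotransmitters, amino acids and citrate.

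Each tissue lay on its own slide, which carried both ages, so age could be compared within a slide, whereas a difference between tissues and a difference between slides cannot be told apart. From 58.6% to 71.1% of probes were well above background on an array. In the young mice the proximal tubule, hepatocyte, alveolar type 2 and adipocyte lists each had their highest log2 summed level in their own tissue. The tubule injury list was lower in the young kidney (-0.96 to -0.28) than in the other young tissues (at least 0.95). The proximal tubule list gave at least 10.72 in the kidney and at most 9.35 elsewhere, and the hepatocyte list at least 11.77 in the liver and at most 8.34 elsewhere. The alveolar type 2 list gave at least 10.18 in the lung and at most 7.30 elsewhere, and the adipocyte list at least 9.93 in WAT and at most 5.96 elsewhere. Detection alone did not set the tissues apart. Every proximal tubule marker was also detected in young WAT, and every adipocyte marker in young kidney and lung. Some arrays stood apart. WAT 10W replicate 1 correlated with the other young WAT arrays at 0.944 and 0.952 over all genes, against 0.989 between those, and lung 90W replicate 1 was the highest of the lungs in the log2 summed level of 5 hepatocyte markers, which ranged from 1.01 to 6.62 at 90W and from 2.85 to 3.60 at 10W. The age calls in the lung and WAT are given with and without these arrays, whereas most single values are given with all arrays.

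In the young mice, most of these carriers were highest in the kidney. Of the 87 members that passed the filter for levels, 48 were higher in the kidney than in each of the other tissues (limma, each of the 3 contrasts past the threshold), compared with 9.46% of all genes. The liver held 11 members as its highest (19.8% of all genes), the lung 6 (10.3%) and WAT 2 (7.29%), and 20 had no tissue above all the others. Of the 48 kidney members, 5 were well above background in no other young tissue, and the same held for Slc6a14 in the lung. These entered the test only through the tissue where they were high, so a call as highest was bound to follow. Among the 48 kidney members the step from the kidney to the next tissue was smallest, at 0.48, for Slc12a9.

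**Figure D1:**
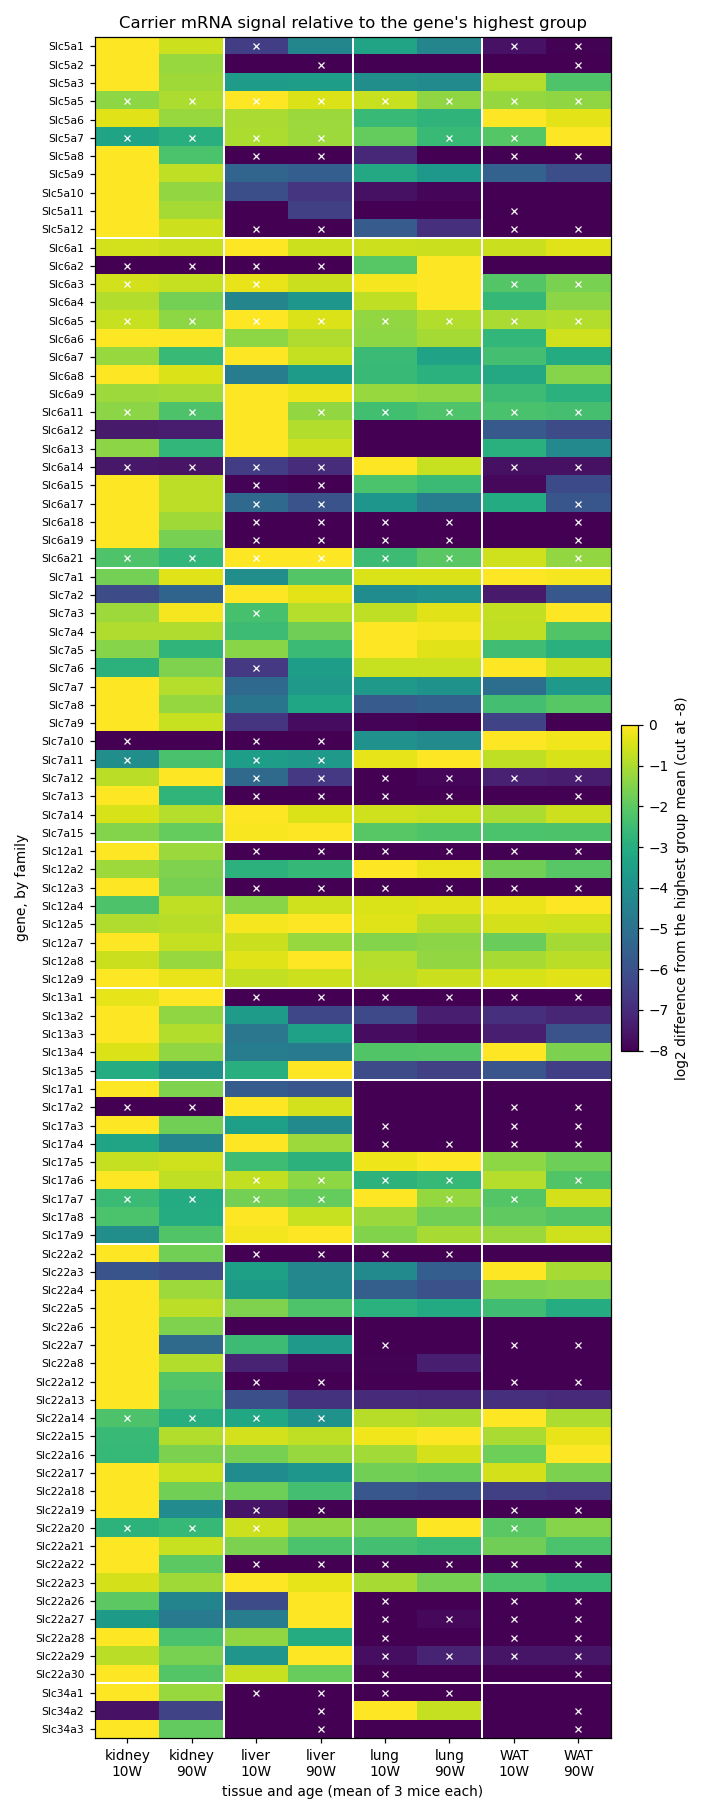
Each row is 1 of 93 carriers and each column a tissue at 1 age; the colour gives the mean log2 signal of 3 mice minus the highest group mean of the same gene, cut at -8, and a white cross marks a group in which the probe was well above background on no array. The young kidney is the brightest column for most rows of Slc5, Slc22 and Slc34, and the young liver for Slc6a12, Slc6a13, Slc17a2 and Slc17a4.

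The kidney-restricted members included the electrolyte carriers of the distal nephron. Slc12a1, the sodium-potassium-chloride cotransporter of the thick ascending limb, gave 5.05, 5.02 and 5.18 in the 3 young kidneys and was well above background on no young array of the liver, lung or WAT, at least 852-fold below the kidney. Slc12a3, the thiazide-sensitive cotransporter of the distal convoluted tubule, gave 3.11, 3.13 and 3.07 and was likewise measured in the kidney alone, at least 215-fold above the others. Slc13a1, the renal sulfate carrier (at least 1198-fold), Slc22a22, a prostaglandin-specific organic anion carrier (at least 228-fold), and Slc7a12 (at least 18.0-fold) shared this pattern, and Slc6a14, an amino acid carrier of airway and gut epithelium, showed it in the lung (at least 23.6-fold). These bounds use, for each array, the dimmest signal that still passed as well above background.

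Other proximal tubule carriers were measured on some arrays of another tissue. Slc34a1, the main renal phosphate carrier, gave 8.17, 8.19 and 8.30 in the young kidney and -4.44, -6.62 and -5.36 in young WAT. It was well above background on 2 of the 3 young WAT arrays and on no young array of the liver or lung, so the step below the kidney is not measured in full. A second probe of Slc34a1, above background on every array, gave a mean of 7.24 in the young kidney, -1.98 in the liver, -3.24 in the lung and -3.26 in WAT. Slc5a2, the glucose carrier of the early proximal tubule, had a mean of 6.80 in the young kidney and of -4.72, -4.77 and -4.92 in the liver, lung and WAT, well above background on 1, 3 and 3 of their young arrays. Slc22a6, the basolateral organic anion exchanger, was measured on every young array and stood 8.22 ± 0.17 (SE) higher in the kidney than in the liver. For Slc22a7, an organic anion carrier of kidney and liver, the kidney (5.82, 6.05 and 6.21) stood 2.52 ± 0.24 above the liver (3.78, 3.39 and 3.36).

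Members highest in the young liver included Slc17a2, a relative of the phosphate carriers (9.13 ± 0.50 above the lung), Slc7a2, a carrier of cationic amino acids (4.12 above the lung), and the betaine and GABA carriers Slc6a12 (5.77 above WAT) and Slc6a13 (1.40 above the kidney). The lung held Slc34a2, the phosphate carrier of alveolar type 2 cells (3.30, 3.12 and 3.45, 7.60 ± 1.17 above the kidney), and Slc6a2, the noradrenaline carrier (2.62, 2.56 and 3.12, 7.05 ± 0.50 above WAT). WAT held Slc7a10, a carrier of small neutral amino acids (3.89, 4.72 and 4.80, 3.95 ± 0.22 above the lung), and Slc22a3, an organic cation carrier (0.91, 1.69 and 1.56, 3.46 ± 0.33 above the liver). With array scaling by spiked-in RNA, which shifts each array as a whole, 45 members were highest in the kidney, 5 in the liver, 14 in the lung and 2 in WAT.

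In the aged kidney, most of these carriers were lower. Of 81 members tested, 60 were called lower and 10 higher at 90W, and 11 did not pass; 34 of the lower members fell at least 2-fold. Of all 31452 genes tested in the kidney, 42.4% were called lower and 20.8% higher, and the median change was -0.80 over the members and -0.23 over all genes. With spike-in scaling the median of all genes moved to 0.15, the calls over all genes turned from 32.9% to 67.8% higher, and 36 members were lower and 11 higher with a member median of -0.42. The groups did not overlap in any of the 70 called members, as in 99.4% of all genes called in the kidney. In 46 of the 60 lower members the lowest of the 3 aged mice was replicate 1 (58.7% of all genes called lower) and in 47 the highest was replicate 3 (68.4%). Leaving out any 1 kidney array left 55 to 57 members lower and 8 to 10 higher. Fewer cells of a type and less RNA per cell cannot be told apart in these whole-tissue samples.

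**Figure D2:**
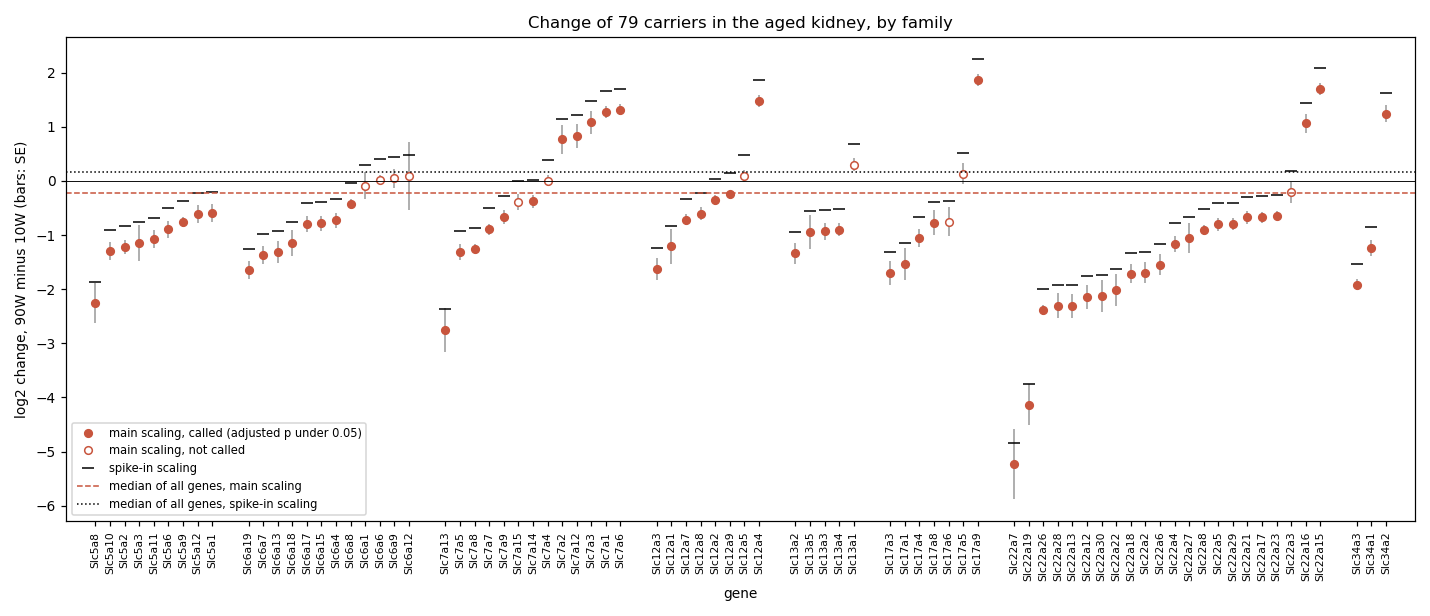
Points are the log2 change in the kidney (90W minus 10W, with SE) of 79 tested carriers, sorted within each family, filled where called; dashes give the same change under spike-in scaling, and the horizontal lines the median of all genes under both scalings. All 9 Slc5 members and 19 of 22 Slc22 members lie at called negative values, whereas 6 of 13 Slc7 members lie above 0, 5 of them called.

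Phosphate reabsorption rests mainly on Slc34a1 and Slc34a3, both of the apical proximal tubule. Slc34a1 gave 8.17, 8.19 and 8.30 in the 10W mice and 6.72, 6.94 and 7.27 in the 90W mice, a change of -1.24 ± 0.15 (SE), adjusted p = 0.000853. Slc34a3 gave 4.40, 4.47 and 4.45 in the 10W mice and 2.55, 2.34 and 2.68 in the 90W mice, a fall of 3.78-fold (-1.92 ± 0.10 (SE), adjusted p = 7.22e-05). In both genes every aged kidney lay below every young kidney. Slc34a2, whose main site is the lung, was dim in the kidney and moved the other way, from -4.16, -4.56 and -4.19 to -3.28, -2.83 and -3.07 (1.24 ± 0.16 (SE), adjusted p = 0.00109).

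Of the 5 Slc13 members, 4 were lower, compared with 42.4% of all genes. With spike-in scaling 3 were lower and 1 higher, compared with 14.0% and 29.5% of all genes. Slc13a2, the citrate and dicarboxylate carrier of the apical membrane, changed by -1.34 ± 0.20 (SE), adjusted p = 0.00172, and Slc13a3, its basolateral counterpart, by -0.93 ± 0.15 (SE), adjusted p = 0.00275. Slc13a1, the sulfate carrier, was the exception: 5.65, 5.64 and 5.44 in the 10W mice and 5.70, 5.87 and 6.05 in the 90W mice, a change of 0.30 ± 0.12 (SE), adjusted p = 0.0701, and 0.69 with spike-in scaling (adjusted p = 0.0117), so it was not called in the main scaling and was called higher in the other. Among the Slc17 genes, which include apical urate and phosphate carriers of the tubule, Slc17a1 gave 4.50, 4.67 and 4.82 in the 10W mice and 2.53, 3.14 and 3.72 in the 90W mice (-1.54 ± 0.30 (SE), adjusted p = 0.00493) and Slc17a3 gave 6.46, 6.54 and 6.67 in the 10W mice and 4.36, 4.98 and 5.20 in the 90W mice (-1.71 ± 0.22 (SE), adjusted p = 0.00107). Again the groups did not overlap. In all, 4 of 7 tested Slc17 members were lower and 1 was higher, compared with 42.4% and 20.8% of all genes.

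The Slc5 family takes up sugars and monocarboxylates. All 9 of its members tested were lower, by 0.59 to 2.26 on the log2 scale, compared with 42.4% of all genes. Slc5a2, which takes up most filtered glucose in the early proximal tubule, gave 6.85, 6.72 and 6.84 in the 10W mice and 5.46, 5.45 and 5.82 in the 90W mice (-1.22 ± 0.12 (SE), adjusted p = 0.000505). Slc5a1, the high-affinity glucose carrier of the late segment, changed by -0.59 ± 0.16 (SE; adjusted p = 0.0182, and -0.21 with spike-in scaling, adjusted p = 0.36). Slc5a8, the sodium-coupled lactate carrier of the late proximal tubule, gave 3.68, 3.91 and 3.99 in the 10W mice and 0.75, 1.81 and 2.24 in the 90W mice, a 4.79-fold fall (-2.26 ± 0.37 (SE), adjusted p = 0.00265). Slc5a12, the low-affinity lactate carrier of the earlier segment, changed by -0.61 ± 0.17 (SE), adjusted p = 0.0189, and by -0.22 with spike-in scaling (adjusted p = 0.39). The family's median was -1.07, and -0.69 with spike-in scaling, where 5 of the 9 were called.

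In the Slc6 family of amino acid, creatine and taurine carriers 8 of 12 members were lower and none was higher in limma. Over all genes these shares were 42.4% and 20.8%. The member counts were the same at an unadjusted p under 0.05, and the other 4 lay between -0.09 and 0.09. With spike-in scaling 4 members were lower and none was higher in limma, compared with 14.0% and 29.5% of all genes. Slc6a19, the apical carrier of neutral amino acids, gave 4.39, 4.56 and 4.45 in the 10W mice and 2.55, 2.76 and 3.16 in the 90W mice, a 3.13-fold fall (-1.65 ± 0.17 (SE), adjusted p = 0.000483). Slc6a18, its relative in the late proximal tubule, changed by -1.15 ± 0.24 (SE), adjusted p = 0.00667. Slc6a8, the creatine carrier, changed by -0.42 ± 0.10 (SE), adjusted p = 0.00943, but by 0.05 with quantile normalization, which turned its direction. Slc6a6, the taurine carrier, gave 4.07, 4.11 and 4.07 in the 10W mice and 4.14, 3.99 and 4.16 in the 90W mice and did not pass (0.02 ± 0.08 (SE), adjusted p = 0.847); its groups overlapped.

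The Slc7 family split. Of 13 members, 6 were lower and 5 higher, compared with 42.4% and 20.8% of all genes. The median of -0.38 moved to 0.01 with spike-in scaling. The lower members were led by Slc7a13, an aspartate and cystine carrier of the late proximal tubule that works with Slc3a1: 5.94, 6.24 and 6.10 in the 10W mice and 2.43, 3.48 and 4.10 in the 90W mice, a 6.76-fold fall (-2.76 ± 0.40 (SE), adjusted p = 0.00174). The basolateral exchangers Slc7a7 (-0.90 ± 0.10 (SE), adjusted p = 0.000595) and Slc7a8 (-1.25 ± 0.09 (SE), adjusted p = 0.000164) were lower, as was the apical cystine carrier Slc7a9 (-0.66 ± 0.13 (SE), adjusted p = 0.00516). Slc7a5, the large neutral amino acid exchanger, gave -1.97, -1.70 and -1.44 in the 10W mice and -2.95, -2.97 and -3.12 in the 90W mice (-1.31 ± 0.15 (SE), adjusted p = 0.000676). The higher members were Slc7a1, Slc7a2, Slc7a3, Slc7a6 and Slc7a12, of which the first 3 carry cationic amino acids. Slc7a1 gave 0.14, 0.02 and 0.20 in the 10W mice and 1.44, 1.50 and 1.24 in the 90W mice (1.27 ± 0.10 (SE), adjusted p = 0.000253), and Slc7a6, an arginine and glutamine exchanger, gave -2.36, -2.38 and -2.23 in the 10W mice and -0.93, -0.94 and -1.18 in the 90W mice (1.31 ± 0.10 (SE), adjusted p = 0.000219). Both gained more than 2-fold, and no aged kidney reached down to a young one.

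All 9 Slc12 electrolyte carriers were tested, 7 were lower and 1 was higher, compared with 42.4% and 20.8% of all genes. With spike-in scaling 2 were lower and 1 was higher, compared with 14.0% and 29.5% of all genes. Slc12a1 gave 5.05, 5.02 and 5.18 in the 10W mice and 3.13, 4.06 and 4.42 in the 90W mice (-1.21 ± 0.32 (SE), adjusted p = 0.0165), and Slc12a3 gave 3.11, 3.13 and 3.07 in the 10W mice and 1.00, 1.63 and 1.79 in the 90W mice, a 3.09-fold fall (-1.63 ± 0.21 (SE), adjusted p = 0.00101). The ubiquitous Slc12a2, which serves cell volume and secretion, changed by -0.35 ± 0.09, and Slc12a9 by -0.25 ± 0.08; both were called lower but stood at 0.03 and 0.14 with spike-in scaling, as did Slc7a14 of the preceding family (-0.38 and 0.01). Slc12a4, a potassium-chloride cotransporter found in most cells, rose: 1.24, 1.22 and 1.32 in the 10W mice and 2.88, 2.79 and 2.54 in the 90W mice (1.48 ± 0.11 (SE), adjusted p = 0.000195).

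The Slc22 family holds the drug carriers of the kidney. Of its 23 tested members 20 were lower and 2 higher, compared with 42.4% and 20.8% of all genes. The median was -1.16 (-0.78 with spike-in scaling, 14 lower). Slc22a7 fell by the widest margin of all members: 5.82, 6.05 and 6.21 in the 10W mice and -0.54, 0.74 and 2.18 in the 90W mice, a 37.6-fold difference (-5.23 ± 0.64 (SE), adjusted p = 0.000904). Its aged mice lay far apart, and even the highest of them was well under the lowest young mouse. Slc22a19, an organic anion carrier of the late proximal tubule, gave 2.61, 2.80 and 2.89 in the 10W mice and -2.21, -1.23 and -0.65 in the 90W mice, a 17.5-fold fall (-4.13 ± 0.38 (SE), adjusted p = 0.000378). Slc22a12, which reabsorbs urate at the apical membrane, gave 5.17, 5.36 and 5.32 in the 10W mice and 2.76, 3.01 and 3.63 in the 90W mice (-2.15 ± 0.22 (SE), adjusted p = 0.000547). Slc22a13, another apical carrier of urate and nicotinate, changed by -2.30 ± 0.22 (SE), adjusted p = 0.00043.

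The basolateral anion and cation carriers, which bring drugs from the blood into the tubule cell, were lower as well. Slc22a6 gave 7.45, 7.45 and 7.59 in the 10W mice and 5.55, 5.98 and 6.32 in the 90W mice (-1.55 ± 0.20 (SE), adjusted p = 0.00102), and Slc22a8, which overlaps with it in substrates, changed by -0.91 ± 0.09 (SE), adjusted p = 0.000527. The cation carrier Slc22a2 changed by -1.69 ± 0.20 (SE), adjusted p = 0.000779. Slc22a5, the carnitine carrier, changed by -0.80 ± 0.13 (SE), adjusted p = 0.00219, and by -0.42 with spike-in scaling (adjusted p = 0.066). Slc22a26, Slc22a28, Slc22a30 and Slc22a22 each fell between 2.01 and 2.39 on the log2 scale. The 2 higher members were Slc22a15, which went from -3.87, -3.80 and -3.63 to -1.92, -2.08 and -2.20 (1.70 ± 0.11 (SE), adjusted p = 0.000127), and Slc22a16, a carnitine carrier (1.06 ± 0.17 (SE), adjusted p = 0.00235).

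**Figure D3:**
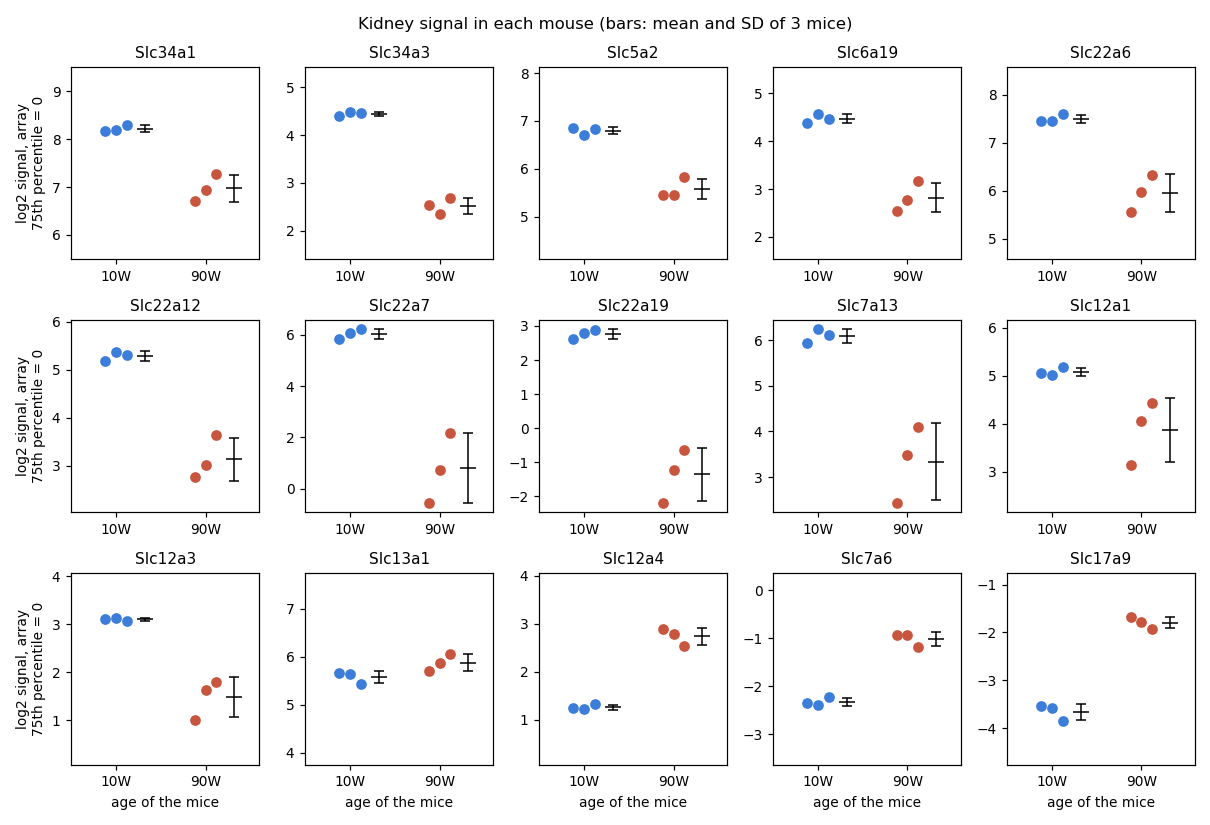
Each point is the log2 kidney signal of 1 mouse (blue 10W, red 90W; bars, mean and SD of 3), with a vertical span of at least 4 log2 units per gene. The groups do not overlap in any of the 15 genes shown (70.7% of all genes tested in the kidney): Slc13a1, the only one of them not called, differs by 0.30, and Slc22a7 by 5.23.

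The gene that rose the most in the kidney was Slc17a9, the carrier that loads ATP into vesicles: -3.54, -3.58 and -3.84 in the 10W mice and -1.69, -1.77 and -1.92 in the 90W mice (1.86 ± 0.12 (SE), adjusted p = 0.000114). Of the 10 higher members, 1 (Slc7a12) had been highest in the young kidney and 9 had not. Of the 48 members highest in the young kidney, 45 were lower at 90W, with a median of -1.16. Of the 33 other tested members 15 were lower, with a median of -0.35, against 42.4% of all genes called lower in the kidney. With spike-in scaling the medians of the 2 sets were -0.77 and 0.03. Level and change came from the same young arrays, so this split is given without a test.

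By nephron segment, from a list of known sites, all 15 carriers of the early proximal tubule (S1 and S2) and all 6 of the late part (S3) were lower in the aged kidney, as were 7 of 8 proximal carriers with no fixed part. The medians were -1.25, -2.51 and -1.23, and -0.87, -2.12 and -0.84 with spike-in scaling, which left 13, 5 and 6 of them lower. Of the 50 tested members with no listed site, 30 were lower and 10 higher (42.4% and 20.8% of all genes), with a median of -0.62. Whether the late part differed from the early part was not tested.

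Partners of these carriers were lower as well. Of 24 genes listed for their known work with the carriers, 23 were on the array and tested in the kidney. In limma 22 were lower and none was higher (median -0.93), compared with 42.4% and 20.8% of all genes. The remaining gene, the kinase Stk39, changed by -0.26 ± 0.11 (limma, adjusted p = 0.0767). Slc3a1 and Slc3a2, the heavy chains that anchor Slc7 carriers in the membrane, changed by -1.38 and -0.55, and Cltrn, which brings Slc6a19 to the apical surface, by -1.27. Atp1b1, a subunit of the sodium pump, whose gradient drives most of these carriers, changed by -0.82, and the scaffold Pdzk1 by -1.20. The tubule transcription factor Hnf4a changed by -1.08. With spike-in scaling Oxsr1 and Stk39 lay at 0.11 and 0.12, above 0, and the others stayed below it, but 14 of the 22 calls remained; among those lost were Slc3a2 (-0.16, adjusted p = 0.433) and Atp1b1 (-0.43, adjusted p = 0.0638).

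Markers of cell types were read in the same kidneys, where 42.4% of all genes were called lower and 20.8% higher. All 7 proximal tubule markers that are not members were lower (median -1.10, log2 summed level 10.72 to 10.93 at 10W and 9.63 to 10.11 at 90W), as were 3 of 4 markers of the thick ascending limb and 3 of 3 of the distal convoluted tubule (medians -1.14 and -2.58). Of the collecting duct, 3 of 4 principal cell (median -0.97, summed level 5.03 to 5.39 against 3.97 to 4.64) and 3 of 4 intercalated cell markers (median -0.66, 3.29 to 3.74 against 2.69 to 2.89) were lower. All 3 tubule injury markers were higher (median 6.08, summed level -0.96 to -0.28 against 5.13 to 5.33), as were 5 of 5 fibroblast (median 3.14, 3.84 to 4.06 against 6.21 to 6.66), 6 of 7 leukocyte (median 2.83, 5.10 to 5.35 against 7.20 to 7.48) and 4 of 5 podocyte markers (median 0.32). Of 5 adipocyte markers 4 were higher and 1 lower (median 2.24, 3.53 to 3.82 against 4.10 to 4.32). Of 5 endothelial markers 1 was lower and none was higher (limma, median 0.07). Lower calls also fell in lists named for cells of other organs. In the same kidneys 4 of 4 tested hepatocyte markers (median -1.29), 2 of 2 alveolar type 2 markers (-1.14) and 2 of 2 club cell markers (-0.82) were lower. The alveolar type 2 markers Sftpc, Sftpb and Sftpa1 were above background on no kidney array. In the young kidneys the hepatocyte list summed to 8.11 to 8.26 and the alveolar type 2 list to 7.22 to 7.30. Which kidney cells gave these signals was not tested. Of 2 alveolar type 1 markers 1 was higher, and of 3 tested muscle markers 2 were higher and 1 lower. The part of the kidney's cells in the changes of the carriers was not tested.

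The carriers of the Slc22a19 to Slc22a30 cluster behaved unlike each other in the liver. Slc22a19, Slc22a26, Slc22a27, Slc22a28, Slc22a29 and Slc22a30 are organic anion carriers of rodents that follow each other among the protein-coding genes of chromosome 19, next to Slc22a8 and Slc22a6. Slc22a26 rose in the aged liver by the widest margin of any member in any tissue: -4.68, -4.71 and -4.10 in the 10W mice and 2.13, 2.91 and -0.11 in the 90W mice, a 70.4-fold difference (6.14 ± 0.71 (SE), adjusted p = 0.00326). Slc22a27 gave -3.56, -3.22 and -4.89 in the 10W mice and 1.22, 0.83 and 0.24 in the 90W mice (4.65 ± 0.46 (SE), adjusted p = 0.00222), and Slc22a29 gave -3.78, -3.75 and -4.77 in the 10W mice and 0.07, -0.77 and -0.14 in the 90W mice (3.82 ± 0.34 (SE), adjusted p = 0.0018). All 3 were well above background in every aged liver, but in 1, 2 and 2 of the 3 young livers, and no aged liver overlapped a young one.

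Of their neighbours, Slc22a28 was lower in the aged liver and gave 2.95, 3.05 and 3.10 in the 10W mice and 1.48, 0.20 and 2.26 in the 90W mice (-1.73 ± 0.48 (SE), adjusted p = 0.0376). Slc22a30 gave 4.44, 4.42 and 4.35 in the 10W mice and 3.50, 2.35 and 3.84 in the 90W mice and did not pass (-1.17 ± 0.37 (SE), adjusted p = 0.0525), and Slc22a19 was well above background in no liver. In the kidney, all 6 were lower at 90W, by 0.80 for Slc22a29 to 4.13 for Slc22a19, so Slc22a26, Slc22a27 and Slc22a29 were called in opposite directions in the 2 organs. These 3 genes were highest in the kidney among the young mice and highest in the liver among the aged.

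**Figure D4:**
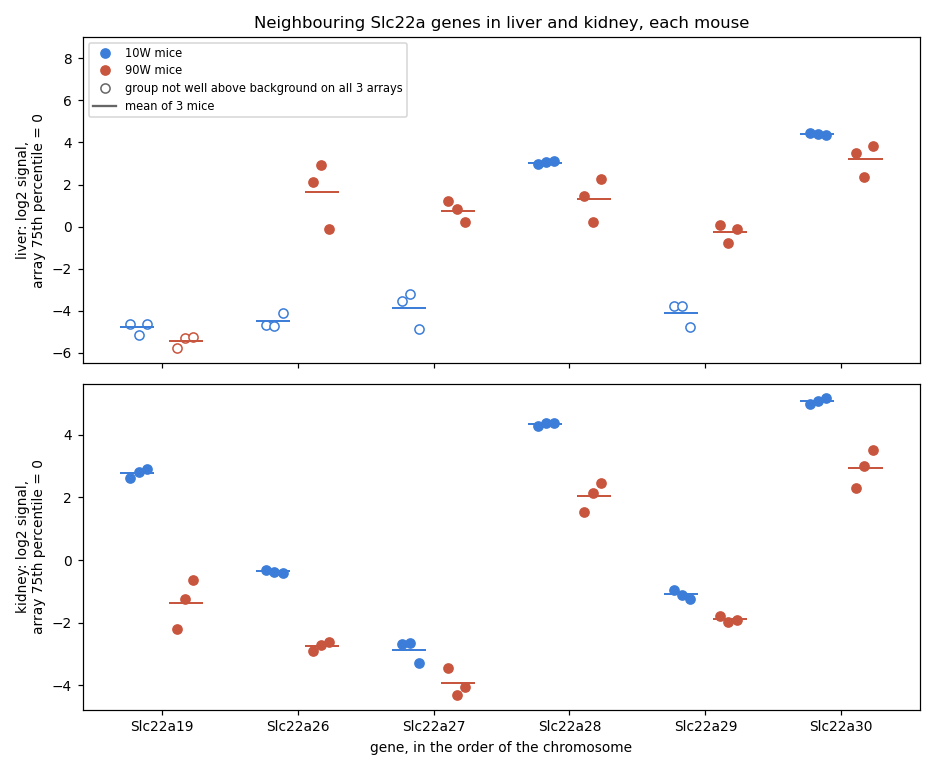
Points are the log2 signal of each mouse in the liver (upper panel) and kidney (lower panel) for 6 neighbouring genes; open points mark groups in which not all 3 arrays were well above background. In the liver Slc22a26, Slc22a27 and Slc22a29 lie 3.82 to 6.14 higher at 90W and Slc22a28 lies 1.73 lower, whereas in the kidney all 6 are lower.

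The upstream sequences of the cluster show how alike some of these genes are. Over the 250 bases before the start, Slc22a28 and Slc22a30 were 93.0% identical in a global alignment and Slc22a29 and Slc22a30 62.7%. Slc22a28 and Slc22a29 were 65.1% identical, and Slc22a26 and Slc22a27 46.0%. RefSeq promoters (GRCm38.p6) were given for 72 of the 96 symbols. The 120 bases that end at the base before the start are shown for Slc22a30 (chr19:8405106-8405225 on the - strand), Slc22a28 (chr19:8131983-8132102 on the - strand) and Slc22a29 (chr19:8218901-8219020 on the - strand), since Slc22a28 and Slc22a29 changed in opposite directions in the liver. They run 5′ to 3′, and capitals mark the 3 bases of Slc22a28 and the 13 of Slc22a29 that were not aligned to the same base of Slc22a30. Bases of Slc22a30 that are missing from the other gene are not marked, so the capitals do not count every difference.
Slc22a30: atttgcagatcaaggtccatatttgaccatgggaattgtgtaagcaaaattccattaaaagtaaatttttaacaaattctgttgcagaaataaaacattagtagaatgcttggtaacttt
Slc22a28: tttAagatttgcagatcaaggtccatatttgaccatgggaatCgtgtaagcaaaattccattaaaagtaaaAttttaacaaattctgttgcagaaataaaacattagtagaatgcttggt
Slc22a29: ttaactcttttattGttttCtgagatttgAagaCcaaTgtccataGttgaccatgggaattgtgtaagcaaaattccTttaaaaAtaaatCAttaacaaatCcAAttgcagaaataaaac

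Probes of near-identical genes can bind each other's RNA, so the values of this cluster are less certain to belong to 1 gene than those of the other members. The likeness above was measured before the start, outside the transcript, so it does not show which of the transcripts are most alike. The sequences of the array's probes were not used here.

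In the liver as a whole, 61 members were tested, 13 were higher and 12 lower, compared with 10.7% and 16.8% of all genes. The medians were -0.22 for the members and -0.20 for all genes. With spike-in scaling 12 members were higher and 3 lower, and over all genes the share of calls that were higher moved from 38.9% to 73.0%. Beside the Slc22 cluster, 6 of the 13 higher members were Slc7 amino acid carriers. Slc7a7 gave 0.82, 0.82 and 0.73 in the 10W mice and 2.48, 2.43 and 2.21 in the 90W mice (1.59 ± 0.15 (SE), adjusted p = 0.00205), Slc7a8 gave -1.53, -1.47 and -1.57 in the 10W mice and 0.24, 0.48 and -0.48 in the 90W mice (1.60 ± 0.26 (SE), adjusted p = 0.00854) and Slc7a1 gave -2.47, -2.08 and -2.24 in the 10W mice and -0.28, -0.09 and -0.68 in the 90W mice (1.91 ± 0.21 (SE), adjusted p = 0.00279). These carriers move large neutral and cationic amino acids across the cell surface. Slc7a6 was well above background in no young liver and in all 3 aged ones (-3.18, -2.34 and -3.45), at least 3.16-fold higher, and Slc7a3 likewise at least 1.22-fold higher. Slc7a6 and Slc7a3 entered the test through the aged livers alone, so a difference was bound to follow; no other called member of any tissue had its dimmer group well above background on no array. In all, 6 of 11 tested Slc7 members were higher in the aged liver, these 2 included, and 2 were lower.

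Slc13a5, the citrate carrier of hepatocytes, gave -1.84, -1.93 and -1.62 in the 10W mice and 1.44, 2.01 and 0.03 in the 90W mice, a 7.74-fold rise (2.95 ± 0.47 (SE), adjusted p = 0.00807). Slc13a2, the renal citrate carrier, moved the other way in the same livers, from 0.88, -0.45 and -0.99 to -2.91, -3.95 and -1.67 (-2.66 ± 0.66 (SE), adjusted p = 0.0289). Slc5a11, an inositol carrier (2.16 ± 0.19 (SE), adjusted p = 0.0017), and the creatine carrier Slc6a8 (1.04 ± 0.17 (SE), adjusted p = 0.00883) were higher as well. The lower members included Slc7a5 (-1.13 ± 0.18 (SE), adjusted p = 0.00807), Slc22a6 (-1.17 ± 0.21 (SE), adjusted p = 0.0123), Slc22a7 (-1.16 ± 0.28 (SE), adjusted p = 0.0262), Slc17a4 (-1.18 ± 0.28 (SE), adjusted p = 0.0254), Slc7a9 (-0.97 ± 0.16 (SE), adjusted p = 0.00926) and Slc6a12 (-0.93 ± 0.20 (SE), adjusted p = 0.0183). Of the well studied carriers that did not pass in the liver, Slc6a6 changed by 0.38 ± 0.21, Slc12a2 by 0.19 ± 0.25, Slc13a3 by 1.40 ± 0.61, Slc17a1 by -0.19 ± 0.31, Slc17a3 by -0.73 ± 0.27, Slc22a5 by -0.66 ± 0.55 and Slc22a8 by -0.64 ± 0.22 (SE).

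The calls toward lower values in the liver were the less stable. Leaving out 1 liver array left 10 to 12 members higher and 3 to 13 lower; without 10W replicate 1 or replicate 2 only 3 lower members remained called, among them none of Slc13a2, Slc22a7 and Slc22a28. In the aged livers 4 of 7 leukocyte and 4 of 5 fibroblast markers were higher (log2 summed levels 4.56 to 5.24 against 6.19 to 7.43 and 5.80 to 6.15 against 7.10 to 7.29), and 2 of 5 hepatocyte markers were lower (median -0.61, log2 summed level at least 11.77 at 10W and 11.22 to 11.43 at 90W). Their part in these changes was not tested.

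In the lung, 69 members were tested, 2 were higher and 7 lower at 90W, compared with 2.71% and 2.89% of all genes. Slc6a2, which takes noradrenaline up again and was highest in the lung, rose from 2.62, 2.56 and 3.12 to 4.18, 5.11 and 5.22 (2.07 ± 0.32 (SE), adjusted p = 0.026). Slc5a11 also rose (2.21 ± 0.33 (SE), adjusted p = 0.025), from 1 of 3 young arrays well above background to 3 of 3. Slc34a2, the phosphate carrier of the alveolar epithelium, gave 3.30, 3.12 and 3.45 in the 10W mice and 2.80, 2.46 and 2.53 in the 90W mice (-0.69 ± 0.14 (SE), adjusted p = 0.0458).

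Both lactate carriers were lower in the aged lung. Slc5a8 gave -3.47, -2.83 and -3.46 in the 10W mice and -7.04, -7.85 and -5.48 in the 90W mice (-3.54 ± 0.60 (SE), adjusted p = 0.0324) and was well above background in 1 of the 3 aged lungs. Slc5a12 gave -0.92, -1.07 and -1.03 in the 10W mice and -2.10, -2.13 and -2.33 in the 90W mice (-1.18 ± 0.10 (SE), adjusted p = 0.0108). Slc5a1 (-1.03 ± 0.11), Slc22a3 (-1.39 ± 0.24), Slc6a7 (-0.84 ± 0.14) and Slc17a8 (-0.50 ± 0.10) completed the lower members. Without 10W replicate 1 or 10W replicate 2 none of the 9 calls remained; without 90W replicate 1, the array with the hepatocyte signal, 6 of the 9 remained, Slc5a8, Slc6a7 and Slc17a8 being lost. At an unadjusted p under 0.05 the limma fit held 7 members higher and 17 lower, compared with 9.23% and 17.7% of all genes. Of 5 alveolar type 2 markers 1 was lower (median -0.18, log2 summed level 10.18 to 10.24 against 10.05 to 10.57) and of 5 adipocyte markers 2 were lower (median -2.40, 5.21 to 5.96 against 2.96 to 4.66). The summed level of 5 fibroblast markers was 6.56 to 6.94 against 4.99 to 5.84, with none called in limma. Their part was not tested. Of the well studied carriers that did not pass, Slc5a2 changed by -1.19 ± 0.31, Slc6a6 by 0.26 ± 0.15, Slc6a8 by -0.32 ± 0.09, Slc7a5 by -0.36 ± 0.22, Slc7a7 by -0.21 ± 0.19, Slc7a8 by 0.21 ± 0.38, Slc7a9 by -0.47 ± 0.13, Slc7a11 by 0.31 ± 0.50, Slc12a2 by -0.25 ± 0.10, Slc13a2 by -1.11 ± 0.60, Slc13a3 by -0.17 ± 0.18, Slc17a1 by 0.60 ± 0.18, Slc22a5 by -0.24 ± 0.14, Slc22a6 by -0.14 ± 0.28, Slc22a8 by 0.60 ± 0.14, Slc22a12 by -0.17 ± 0.70 and Slc34a3 by -0.09 ± 0.38 (SE).

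In WAT, 60 members were tested, 3 were higher and none was lower, compared with 2.0% and 0.577% of all genes; at an unadjusted p under 0.05 the limma fit held 8 higher and 5 lower (9.85% and 9.44% of all genes), and the methods' t-test called none. Slc6a6, the taurine carrier, gave 0.99, 1.58 and 1.64 in the 10W mice and 3.89, 3.24 and 3.47 in the 90W mice (2.13 ± 0.27 (SE), adjusted p = 0.0201). Slc7a7 gave 0.71, 0.99 and 1.12 in the 10W mice and 2.61, 1.93 and 2.50 in the 90W mice (1.40 ± 0.24 (SE), adjusted p = 0.0452), and Slc22a16 gave -1.16, -0.68 and -0.86 in the 10W mice and 1.36, 0.38 and 0.84 in the 90W mice (1.76 ± 0.29 (SE), adjusted p = 0.0425). The creatine carrier Slc6a8 had the same direction, 2.41, 2.35 and 2.45 in the 10W mice and 4.91, 3.92 and 3.55 in the 90W mice, but did not pass (1.72 ± 0.36 (SE), adjusted p = 0.0718). Without WAT 10W replicate 1, Slc6a6 alone of the 3 remained called, and without 10W replicate 2, 10W replicate 3, 90W replicate 1 or 90W replicate 3 none did. Of 7 leukocyte markers 3 were higher in aged WAT (median 1.86, log2 summed level 5.61 to 6.86 against 7.07 to 7.80), and their part was not tested.

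In WAT 10W replicate 1 some members stood far above the other young mice. Slc7a11, the cystine and glutamate exchanger, gave 0.51, -5.95 and -6.73 in the 10W mice and -5.10, -4.53 and -1.70 in the 90W mice, and Slc7a9 gave 0.58, -3.98 and -1.86 in the 10W mice and -3.71, -4.08 and -3.92 in the 90W mice. Neither difference passed (adjusted p = 0.957 and 0.337). Of the other well studied carriers that did not pass in WAT, Slc5a2 changed by -0.83 ± 0.28, Slc7a5 by -0.46 ± 0.22, Slc7a8 by 0.30 ± 0.35, Slc12a2 by -0.38 ± 0.24, Slc13a2 by -0.27 ± 0.81, Slc13a3 by 1.37 ± 0.84, Slc17a1 by -0.12 ± 0.19, Slc22a2 by -1.95 ± 1.20, Slc22a5 by -0.60 ± 0.34, Slc22a6 by -0.57 ± 0.17, Slc22a8 by -0.19 ± 0.18 and Slc34a1 by -1.25 ± 0.75 (SE).

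Across tissues, 89 members were tested at least once. Of these 75 were called in at least 1 tissue (64.8% of all genes), 9 in opposite directions in different tissues (2.21%) and none in all 4 (0.322%). The 9 were Slc5a11, Slc6a8, Slc7a7, Slc7a8, Slc13a5, Slc22a26, Slc22a27, Slc22a29 and Slc34a2. Except for Slc34a2, which was lower in the lung and higher in the kidney, all were lower in the kidney and higher in the liver. In 1 model over the 24 arrays the difference itself was tested, as the kidney change minus the mean change of the other tissues, for 52 members that passed the filter in every tissue. It was negative for 15 of them (14.7% of all genes) and positive for 2 (7.66%). With spike-in scaling the counts were 5 and 3.

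Slc7a7 showed one of the clearest contrasts: its change was -0.90 in the kidney, 1.59 in the liver, -0.21 in the lung and 1.40 in WAT, a difference of -1.82 ± 0.20 (SE), adjusted p = 9.73e-06. For Slc5a11 the changes were -1.07, 2.16, 2.21 and 1.36 in the same order (-2.98 ± 0.34 (SE), adjusted p = 1.52e-05), and for Slc22a13 -2.30, -0.78, -0.06 and -0.13 (-1.98 ± 0.20 (SE), adjusted p = 5.51e-06). On the higher side, Slc12a4 changed by 1.48, 0.84, 0.08 and 0.24 (1.09 ± 0.28 (SE), adjusted p = 0.0102).

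**Figure D5:**
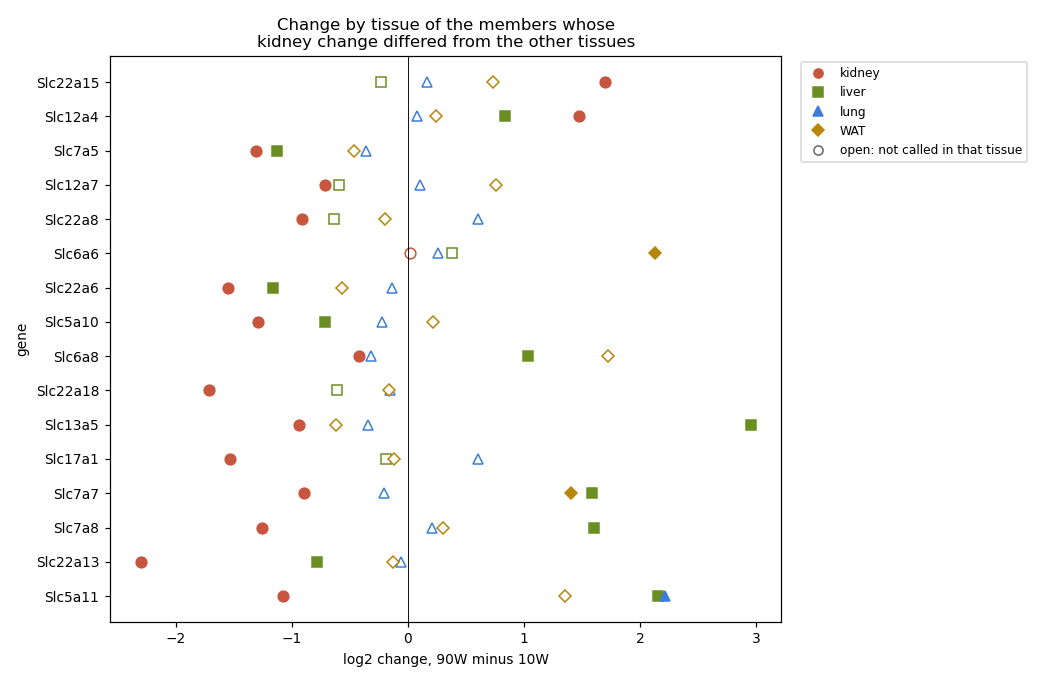
Each row is 1 of 16 members whose age change in the kidney differed from the mean of the other tissues, and each symbol the log2 change (90W minus 10W) in 1 tissue, filled where called. The kidney circle lies left of 0 for 13 of the 14 members with a negative difference, with Slc6a6 at 0.02, and at 1.48 and 1.70 for Slc12a4 and Slc22a15.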

How the data were processed

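RNA of 24 samples was measured on 1-colour (Cy3) Agilent arrays. Per the file headers and the labels, the authors deposited scanner intensity values made with Agilent Feature Extraction 11.0.1.1, background-subtracted but not normalized between arrays. The study's methods name a human array kit, whereas the probe annotation in the files is of mouse. From these values the log2 processed signal minus the 75th percentile of each array was computed. Control spots and flagged outliers were left out, and no spot was saturated.

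Accessions were matched to RefSeq symbols for 58.3% of 56605 probes, and 1 probe per gene, the one with the highest mean in any tissue, was used in every tissue. Genes well above background on at least 3 arrays of a comparison were tested in limma 3.58.1 (R 4.3.3; lmFit and eBayes), with Benjamini-Hochberg adjustment over all genes tested and a threshold of 0.05. Groups came from the labels, with 3 mice each; p-values measure the spread between these samples. Where a group was well above background on no array, a fold is given as a lower bound.

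Named with values were the well studied members and, in each tissue, up to 8 called members with the largest change in each direction. The families, lists, segments and markers were chosen with earlier results of these data known. Alternatives were normexp (offset 16), quantile and spike-in scaling, centring, no filter, other probe rules, 1 fit of all arrays, the replicate block, the methods' t-test and leaving out each array. The fits were tested on simulated data. Promoters came from RefSeq (GRCm38.p6) and were aligned with Biopython 1.88. Some members and partner genes are counted but not reported by name here. Figures were drawn with matplotlib 3.10.9.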

Additional observations from a re-analysis of the deposited data

Results flagged for a closer look

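In 17 members the age change in the kidney differed from the mean change of the liver, lung and WAT in 1 fit of all arrays (limma, adjusted over all genes tested). The values that follow are that difference, for 16 of them, on the log2 scale.

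Among the amino acid and creatine carriers the difference was -1.96 for Slc7a8, -1.82 for Slc7a7, -1.24 for Slc6a8, -0.90 for Slc6a6 and -0.66 for Slc7a5. Slc6a6 itself changed by 0.02 in the kidney, which did not pass, and by 2.13 in WAT. Among the organic ion carriers the difference was -1.98 for Slc22a13, -1.40 for Slc22a18, -0.93 for Slc22a6, -0.83 for Slc22a8 and -1.63 for Slc17a1. The inositol carrier Slc5a11 stood at -2.98, the mannose and fructose carrier Slc5a10 at -1.05, the citrate carrier Slc13a5 at -1.60, and the potassium-chloride cotransporter Slc12a7 at -0.81. The difference was positive for Slc12a4 (1.09) and Slc22a15 (1.48).

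With spike-in scaling, 5 of the 15 negative differences and both positive ones remained past the threshold. The weakest of the 17 over the 13 alternatives were Slc13a5 and Slc7a5, which passed in 4 and 5 of them.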

How the results depend on the processing

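Over the 70 members called in the kidney and their alternatives, 1015 of 1120 values kept sign and call, 101 lost the call and 4 turned sign (Slc6a8, Slc12a2, Slc12a9 and Slc7a14, Slc12a9 and Slc7a14 at 0.14 and 0.00805 with spike-in scaling). In the liver 299 of 400 values of the 25 called members kept both and 101 lost the call, in the lung 74 of 144 (9 members) and 70, and in WAT 25 of 48 (3 members) and 23; none of these turned. The cause of the changes was not tested. With spike-in scaling 3 members were lower in the liver, 36 lower in the kidney, 5 had a more negative change in the kidney than elsewhere, and 5 and 14 were highest in the young liver and lung. Without the filter on dim probes the calls were 28 downward for the liver, 0 upward and 2 downward for the lung, and 1 upward for WAT. With the mean of the probes of a gene 1 was higher in the lung. With normexp 4 had a more positive change in the kidney than elsewhere, and 4 were highest in young WAT. The methods' t-test with Benjamini-Hochberg adjustment called 4 liver members downward, 0 lung members upward and 1 downward, and 0 WAT members upward. In 1 fit of all 24 arrays 3 were lower in the lung, and 9 higher and 6 lower in WAT. The replicate block left 9 liver members called upward and 1 downward, 10 and 58 in the kidney, and 0 either way in lung and WAT; deviations of same-numbered mice correlated between -0.163 and 0.179, so the numbers were not taken as a pairing. Leaving out 1 array gave 10 to 12 upward and 3 to 13 downward calls for the liver, 0 to 3 and 0 to 5 for the lung, 8 to 10 and 55 to 57 for the kidney, 0 to 3 upward for WAT, 2 and 12 to 14 differences in the kidney against the other tissues, and 9 to 13, 6 to 9, 44 to 50 and 2 to 5 members highest in young liver, lung, kidney and WAT. Centring each array on the median of its tested genes was chosen after seeing the data. The 3 mice per group limit the precision. The sign turned for some named members. With the mean of the probes of a gene it was -0.00628 for Slc6a6 in the liver, 0.33 for Slc17a3 in the liver, 0.15 for Slc34a3 in the lung and -0.00143 for Slc6a6 in the kidney. With the brightest probe within the tissue it was 0.29 for Slc5a2 in the lung. With normexp background correction it was 0.050 for Slc22a12 in the lung, 0.098 for Slc34a3 in the lung and -0.30 for Slc7a11 in WAT. With quantile normalization it was 0.00657 for Slc34a3 in the lung, 0.054 for Slc6a8 in the kidney and 0.043 for Slc17a1 in WAT. With centring each array on its tested genes it was -0.096 for Slc6a6 in the kidney. With spike-in scaling it was 0.032 for Slc12a2 in the kidney. With 1 array left out the change ran from -0.44 to 0.13 for Slc17a1 in the liver, -0.23 to 0.53 for Slc7a8 in the lung, -0.23 to 0.77 for Slc7a11 in the lung, -0.29 to 0.00141 for Slc13a3 in the lung, -0.40 to 0.17 for Slc22a6 in the lung, -0.69 to 0.56 for Slc22a12 in the lung, -0.46 to 0.30 for Slc34a3 in the lung, -0.013 to 0.073 for Slc6a6 in the kidney, -0.031 to 0.50 for Slc7a8 in WAT, -1.06 to 2.56 for Slc7a11 in WAT and -0.87 to 0.63 for Slc13a2 in WAT.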
